A study of Mus musculus with 12 samples.

Results

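Imprinted protein-coding genes are expressed mainly from the copy inherited from the mother or the father. The set described here held 37 such genes, named by symbol, out of 21981 protein-coding genes listed in the deposited table, and all 37 were found in it. Their level in a library was the summed FPKM (fragments per kilobase of transcript scaled by the mapped fragments of a library) of the transcripts listed for the gene, 147 transcripts in all. The libraries were made from ribosomal-RNA-depleted total RNA of wild-type C57BL/6 mice, an inbred laboratory strain, aged 8 weeks. They came from the trigeminal ganglion (TG), which holds the sensory neurons of the face with their satellite and Schwann cells, and from the spinal trigeminal nucleus caudalis (Sp5C), the part of the brainstem in which many of those neurons end. There were 4 groups of 3 libraries: STG and CTG from the ganglion, SSp5C and CSp5C from the nucleus. The series is titled for chronic inflammatory pain of the temporomandibular joint, but its labels leave S and C unexplained, and that contrast is given as C minus S. Whether each library is its own animal is not stated, and the p-values below then reflect only variation among these samples, part or all of which may be technical. Because both parental chromosomes of an inbred mouse carry the same sequence, these values give the total level of a gene and not which parental copy was read.

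An imprint is set by DNA methylation that differs between the egg and the sperm at control regions, and it is kept through later cell divisions. Most imprinted genes lie in domains that share a control region and often a long non-coding RNA. Many of them act in fetal growth, and a large share is expressed in the brain, where some, such as Ube3a, are imprinted in neurons but not in glia. Grb10, Gnas and Inpp5f have alternative promoters that need not follow the same parental rule. The 37 genes lay on chromosomes 1, 2, 6, 7, 10, 11, 12, 15, 17 and 18.

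Promoter windows of 300 bases (250 before and 50 after a gene's start) were available for 31 of the 37 genes in a RefSeq table of build GRCm38.p6, 48 windows in all. Rtl1, Sgce, Cdkn1c, Trappc9, Peg10 and Impact had none in that table. The windows were searched for TGCCGC, the hexamer that the imprint-maintaining zinc finger protein ZFP57 binds when it is methylated, on both strands (GCGGCA on the other). The hexamer was present in 12 of the 48 member windows (25.0%), from 11 genes, and in 11.6% of all 32851 windows. The member windows held a median of 15 CpG dinucleotides against 7 over all windows. A match describes the letters and is not a binding site. Windows are shown for the genes whose starts or levels carry the results below, with TGCCGC or GCGGCA in capitals. The Peg3 window (chr7:6730370-6730669, minus strand) shared 263 bases with the window of Usp29, which is transcribed the other way from a start 164 bases distant. Nap1l5 (chr6:58907077-58907376, minus strand) held the hexamer at 2 places. The main Snrpn start (chr7:60005150-60005449, minus strand) and the upstream, CpG-rich Grb10 start (chr11:12037371-12037670, minus strand) each held it once. The downstream Grb10 start (chr11:12027922-12028221, minus strand) lies 9.4 kb from the other and held none.
Peg3: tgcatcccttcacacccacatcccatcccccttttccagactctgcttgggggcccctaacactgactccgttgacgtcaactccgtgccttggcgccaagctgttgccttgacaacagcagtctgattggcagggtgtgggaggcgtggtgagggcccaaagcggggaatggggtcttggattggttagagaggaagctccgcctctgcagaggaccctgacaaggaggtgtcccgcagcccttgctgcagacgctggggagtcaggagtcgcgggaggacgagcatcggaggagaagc
Nap1l5: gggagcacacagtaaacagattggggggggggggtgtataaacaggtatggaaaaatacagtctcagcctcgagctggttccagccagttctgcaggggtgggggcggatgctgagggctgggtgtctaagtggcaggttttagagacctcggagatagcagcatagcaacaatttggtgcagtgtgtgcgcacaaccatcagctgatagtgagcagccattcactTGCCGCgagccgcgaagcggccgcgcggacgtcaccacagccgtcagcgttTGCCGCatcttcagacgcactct
Snrpn: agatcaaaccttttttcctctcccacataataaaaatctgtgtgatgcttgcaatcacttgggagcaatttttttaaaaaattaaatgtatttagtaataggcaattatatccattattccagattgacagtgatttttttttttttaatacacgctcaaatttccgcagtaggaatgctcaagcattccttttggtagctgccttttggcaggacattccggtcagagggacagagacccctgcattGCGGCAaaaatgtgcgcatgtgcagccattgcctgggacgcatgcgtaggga
Grb10 upstream: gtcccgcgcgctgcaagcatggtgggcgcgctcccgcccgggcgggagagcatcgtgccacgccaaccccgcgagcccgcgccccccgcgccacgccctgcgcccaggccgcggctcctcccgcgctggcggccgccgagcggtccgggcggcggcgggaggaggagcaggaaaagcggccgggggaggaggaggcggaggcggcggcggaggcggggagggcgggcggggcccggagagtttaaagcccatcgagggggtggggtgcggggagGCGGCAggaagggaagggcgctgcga
Grb10 downstream: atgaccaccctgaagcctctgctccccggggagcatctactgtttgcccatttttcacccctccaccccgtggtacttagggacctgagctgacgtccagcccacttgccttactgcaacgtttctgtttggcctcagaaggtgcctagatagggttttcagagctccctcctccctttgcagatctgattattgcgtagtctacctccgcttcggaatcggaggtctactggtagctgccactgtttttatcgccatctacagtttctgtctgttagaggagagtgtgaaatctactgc

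Neuronal and glial markers went with the tissue labels, while some ganglion libraries also held high levels of pituitary or granulocyte markers. The summed FPKM of 8 sensory neuron markers was 1066 to 1238 in the 6 ganglion libraries and 16.1 to 56.0 in the 6 nucleus libraries. That of 8 hindbrain neuron markers was 54.3 to 60.3 against 449 to 517, and that of 7 astrocyte markers was 56.0 to 112 against 646 to 908. The 6 oligodendrocyte markers summed to 465 to 747 in the ganglion and 2155 to 3361 in the nucleus. One ganglion library, STG replicate 1, stood apart: its 9 pituitary markers summed to 2876 FPKM, with growth hormone (Gh) at 2421, against 2.57 to 51.8 in the other 5 ganglion libraries and 0.664 to 3.48 in the nucleus. Granulocyte markers summed to 877 in CTG replicate 1 and 292 in CTG replicate 3, and to 4.003 to 33.7 in the other ganglion libraries. The depth of sequencing is not known from FPKM.

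Most imprinted genes that differed between the tissues were lower in the ganglion. Of the 37 genes, 28 had a mean of at least 1 FPKM over the 12 libraries and were tested with limma on log2(FPKM + 1). Of these 28, 17 were lower in the ganglion than in the nucleus and 3 were higher (Benjamini-Hochberg adjusted p under 0.05), while 8 did not pass. Over all 13081 genes tested, 35% were called lower and 36.2% higher. The share of members called in either direction, 71.4%, was close to the 71.2% of all genes, while 60.7% of members were called lower against the 35% of all genes. At an unadjusted p under 0.05 there were 21 members against 73.2% of all genes, and the 6 libraries of one tissue did not overlap those of the other for 17 of the 28 members (60.7%) against 53.7% of all genes. The median difference, TG minus Sp5C, was -0.59 over the 28 members and 0.01 over all genes. At a difference of at least 1 on the log2 scale, 7 members were called lower against 9.04% of all genes, and 2 were called higher against 9.82%. In bulk tissue, fewer cells of a type and less RNA per cell cannot be told apart, and the neuronal and glial markers above differed between the tissues in the same comparison; their part in these differences was not tested.

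**Figure D1:**
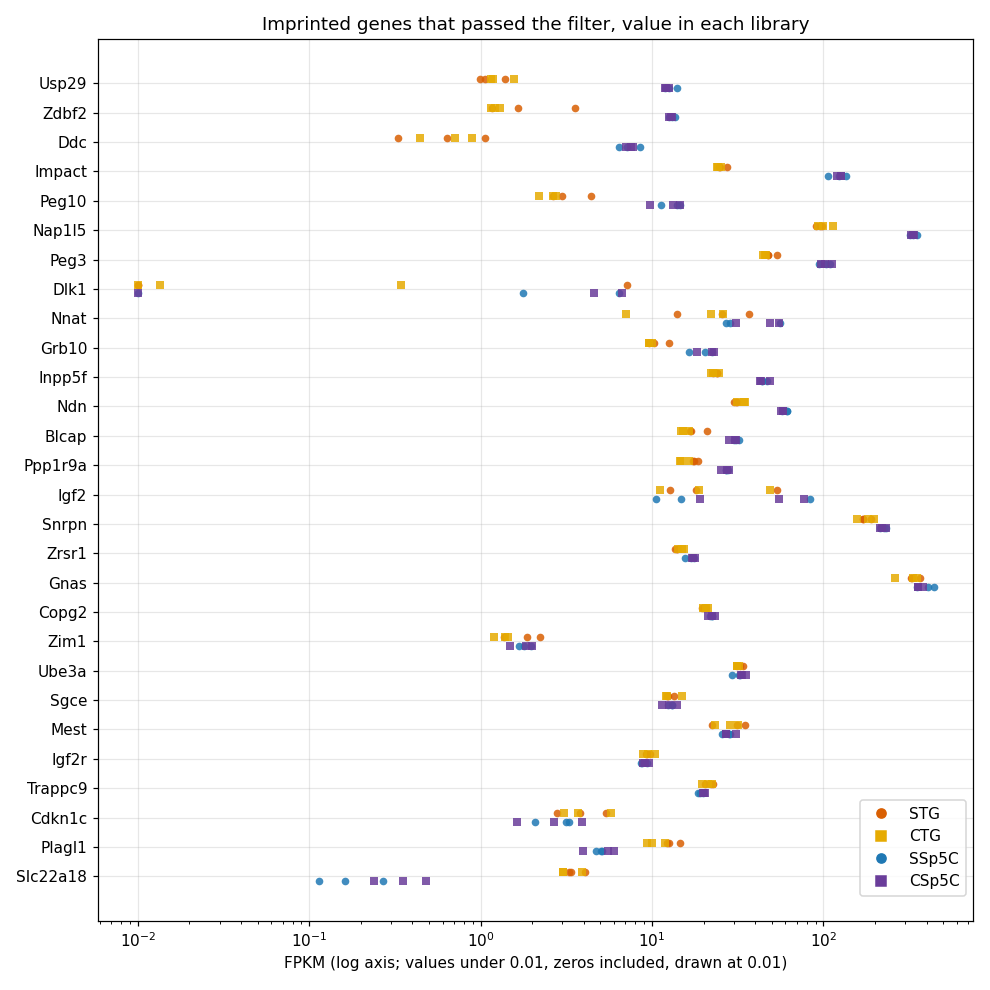
Value of each tested imprinted gene in each of the 12 libraries (FPKM, log axis; circles S, squares C; ganglion in orange and yellow, nucleus in blue and purple), ordered by the difference between tissues, with zeros drawn at the left end. Usp29 through Peg3 at the top sit apart by tissue, as do Plagl1 and Slc22a18 at the bottom, while the points of Igf2 and Dlk1 spread widely within both tissues.

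By the parental copy known to be expressed in the mouse, 15 of 20 paternally expressed members were tested, and 10 of them were lower in the ganglion and 1, Plagl1, higher. Of 13 maternally expressed members 9 were tested, with 3 lower and 2 higher. Over all genes tested, 35% were called lower and 36.2% higher. The 4 members set apart as a mixed class for promoter-dependent or tissue-dependent imprinting (Gnas, Grb10, Ddc and Inpp5f) were all tested and all lower. This assignment is not the only possible one: Ube3a, imprinted in neurons but not in glia, was kept in the maternal class and did not pass. The median differences were -0.96 for the paternal, -0.02 for the maternal and -0.92 for the mixed class. Classes were not tested against each other.

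In the Peg3 domain on chromosome 7, both paternally expressed genes were lower in the ganglion. Usp29, a ubiquitin-specific peptidase, had a lowest, median and highest FPKM of 0.997, 1.17 and 1.57 in the 6 ganglion libraries and 11.9, 12.3 and 13.97 in the nucleus. The tissues did not overlap, and the mean was 10.2-fold higher in the nucleus (difference -2.61 ± 0.07 (SE) on the log2 scale, limma adjusted p = 3.25e-11). Peg3, a zinc finger transcription factor that acts in maternal care and growth in mice, ran from 44.7 (median 46.8) to 53.5 in the ganglion and from 94.4 (median 103) to 112 in the nucleus. It was 2.17-fold higher in the nucleus (-1.10 ± 0.05, limma adjusted p = 3.87e-09). Zim1, a maternally expressed zinc finger gene of the domain, had 1.58 ± 0.386 FPKM (SD, n = 6) in the ganglion and 1.79 ± 0.190 in the nucleus, and did not pass the test (-0.12 ± 0.08, limma adjusted p = 0.221).

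In the Prader-Willi and Angelman domain, also on chromosome 7, Ndn and Snrpn were lower in the ganglion. Ndn encodes necdin, a MAGE family protein of postmitotic neurons. Its lowest, median and highest FPKM were 29.9, 31.3 and 34.7 in the ganglion and 56.4, 58.1 and 61.1 in the nucleus, without overlap (-0.85 ± 0.04, limma adjusted p = 1.93e-09). Snrpn encodes SmN, a spliceosomal protein of neurons, and was among the most abundant members, at 157 to 197 (median 176) FPKM in the ganglion and 214 to 233 (median 224) in the nucleus (-0.33 ± 0.06, limma adjusted p = 0.000295). That call rested on the summed transcripts: the transcript with the highest mean alone gave -0.05 (limma adjusted p = 0.645). In its leading transcript, 24.3% of the 50-base words also occur in other annotated genes, mostly a predicted overlapping gene, so its level is uncertain to that extent. Ube3a, the ubiquitin ligase lost in Angelman syndrome, was at 31.2 to 33.9 (median 31.9) FPKM in the ganglion and 29.4 to 35.3 (median 32.9) in the nucleus, and did not pass (-0.02 ± 0.04, limma adjusted p = 0.612).

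The other 3 genes of that domain lay under the filter. Magel2, a MAGE family gene expressed in the hypothalamus, had 0, 0.00760 and 0.0348 FPKM in STG and 0.0238, 0.0441 and 0 in CTG, the zeros being values as listed. In the nucleus it was at 1.44, 2.16 and 2.03 in SSp5C and 1.56, 1.91 and 1.99 in CSp5C, all above the ganglion. Mkrn3, a makorin ring finger gene, had 0.387 to 0.709 FPKM in the ganglion and 0.744 to 1.21 in the nucleus. Peg12 had 0.121 to 0.262 and 0.201 to 0.461, with overlap.

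Genes of the Peg10 and Sgce domain on chromosome 6 did not move alike. Peg10, derived from a retrotransposon and required for placenta formation in mice, had a lowest, median and highest FPKM of 2.21, 2.71 and 4.38 in the ganglion and 9.79, 13.6 and 14.7 in the nucleus (-1.83 ± 0.12, limma adjusted p = 6.84e-08). With its leading transcript alone the difference was -1.26 and did not pass (limma adjusted p = 0.0763). Ppp1r9a encodes neurabin, which binds actin and targets protein phosphatase 1 in neurons. It ran from 14.6 (median 16.9) to 18.5 in the ganglion and 25.3 (median 27.2) to 28.3 in the nucleus (-0.68 ± 0.04, limma adjusted p = 3.59e-08). Sgce, epsilon-sarcoglycan, had 12.9 ± 1.16 FPKM (SD, n = 6) and 12.8 ± 0.846, a difference of 0.01 ± 0.06 (limma adjusted p = 0.927) whose sign changed under median-ratio scaling (-0.01) and quantile normalization (-0.02). Its leading transcript alone gave 1.29 (limma adjusted p = 0.000141). Asb4, an ankyrin repeat gene, was at 0.864 to 1.21 FPKM in the nucleus and 0.0869 to 0.214 in 5 ganglion libraries, but at 1.31 in STG replicate 1, the library with pituitary markers. Calcr, the calcitonin receptor, was listed at 0 in 5 ganglion libraries and at 0.00986 in CTG replicate 1, and was at 0.189 to 0.543 in the nucleus. Asb4 and Calcr lay under the filter.

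**Figure D2:**
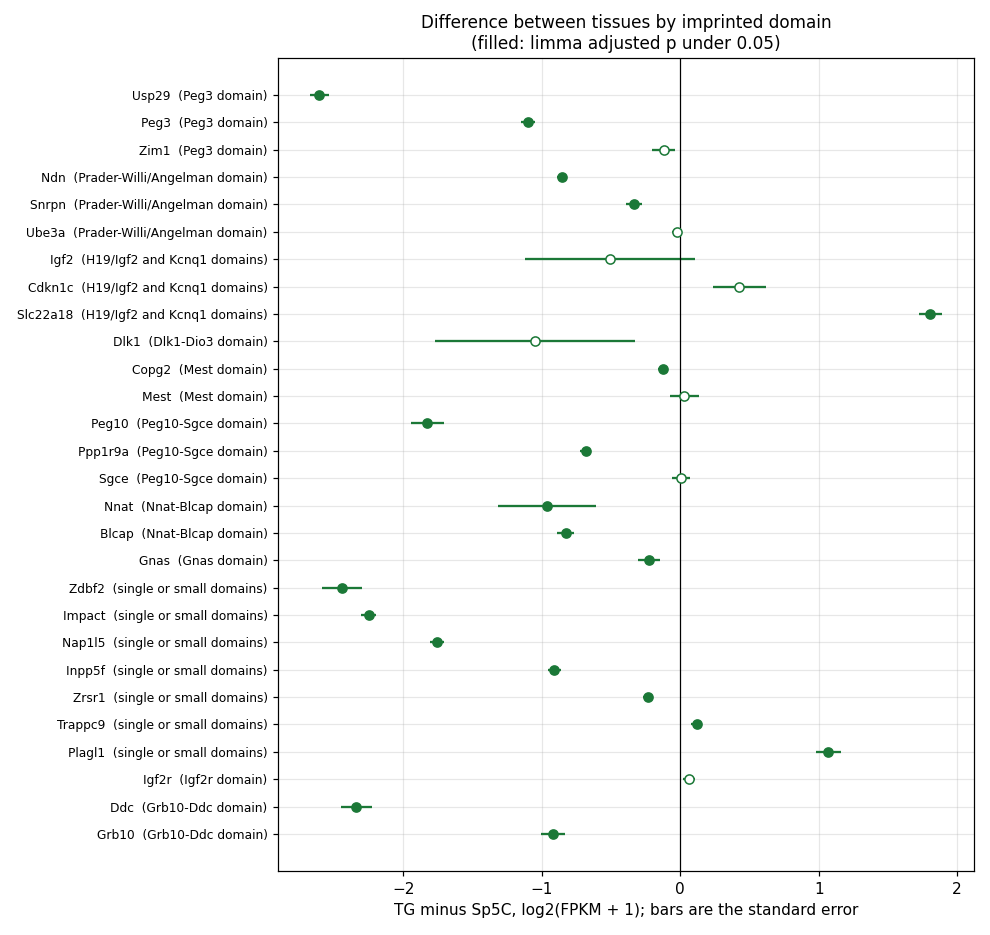
Difference of each tested member between the tissues, TG minus Sp5C on the log2(FPKM + 1) scale, grouped by imprinted domain; points are limma estimates from 12 libraries, bars their standard errors, and filled points passed the adjusted threshold. Filled points lie mostly left of 0, and Slc22a18 at 1.81 and Plagl1 at 1.07 lie furthest to the right.

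Several members that are imprinted singly or in small domains were among those with the widest difference. Zdbf2, a zinc finger gene whose dose affects feeding in young mice, was at 1.16 to 1.66 FPKM in 5 ganglion libraries and 3.54 in STG replicate 1, against 12.5 to 13.6 (median 12.97) in the nucleus (-2.44 ± 0.14, limma adjusted p = 3.12e-08). Impact, an inhibitor of the translational kinase GCN2, had a lowest, median and highest FPKM of 24.1, 24.9 and 27.5 in the ganglion and 107, 126 and 136 in the nucleus, a 4.92-fold higher mean (-2.25 ± 0.06, limma adjusted p = 2.58e-11). Nap1l5, of the nucleosome assembly protein family, was at 90.1 to 114 (median 97.0) in the ganglion and 322 to 354 (median 334) in the nucleus, second only to Gnas there (-1.76 ± 0.05, limma adjusted p = 8.29e-11). None of these 3 genes overlapped between the tissues.

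Inpp5f, a phosphoinositide phosphatase, had 23.4 ± 0.990 FPKM (SD, n = 6) in the ganglion and 44.9 ± 2.45 in the nucleus (-0.91 ± 0.05, limma adjusted p = 6.38e-09). Zrsr1, a retrogene related to a splicing factor and lying within Commd1, ran from 13.7 (median 14.1) to 15.4 and from 15.7 (median 17.2) to 17.7, a small difference between tight groups (-0.23 ± 0.04, limma adjusted p = 0.000149). Of its exonic bases 9.2% lie opposite annotated Commd1 exons, and reads there cannot be told apart without strand. Plagl1, a zinc finger transcription factor also known as Zac1, went the other way: 9.35 to 14.5 (median 12.04) FPKM in the ganglion and 3.98 to 5.99 (median 5.06) in the nucleus, without overlap (1.07 ± 0.09, limma adjusted p = 5.79e-07). Trappc9, a vesicle tethering subunit, was at 19.6 to 22.7 (median 21.6) and 18.5 to 20.3 (median 19.8), with overlap. Its difference of 0.12 ± 0.04 (limma adjusted p = 0.0260) did not pass with median-ratio scaling (limma adjusted p = 0.0987) or quantile normalization (0.0514), in the C libraries alone (0.429), or without CSp5C replicate 3 (0.0524), CTG replicate 3 (0.0594), SSp5C replicate 2 (0.0610), STG replicate 1 (0.0629) or STG replicate 2 (0.0549).

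Grb10 and Ddc, neighbours on chromosome 11, were both lower in the ganglion. Grb10 is an adaptor that restrains insulin and insulin-like growth factor (IGF) receptors. It was at 9.62 to 10.3 FPKM in 5 ganglion libraries and 12.7 in STG replicate 3, against 16.5 to 22.9 (median 21.4) in the nucleus (-0.92 ± 0.09, limma adjusted p = 1.88e-06). Ddc is the decarboxylase that makes dopamine and serotonin. Its lowest, median and highest FPKM were 0.331, 0.671 and 1.06 in the ganglion and 6.45, 7.38 and 8.56 in the nucleus (-2.34 ± 0.11, limma adjusted p = 4.46e-09).

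On chromosome 2, Gnas encodes the stimulatory G protein alpha subunit from several promoters and was the most abundant member in both tissues. Its lowest, median and highest FPKM were 263, 330.0 and 365 in the ganglion and 351, 369 and 440 in the nucleus, with overlap (-0.22 ± 0.08, limma adjusted p = 0.0252). The call was lost within the C libraries (adjusted p = 0.159 by limma) and the S libraries (0.0627), and without CSp5C replicate 2 (0.0561), SSp5C replicate 2 (0.0632), SSp5C replicate 3 (0.0520), STG replicate 2 (0.0555) or STG replicate 3 (0.0538). Blcap, a small membrane protein, ran from 14.7 to 20.9 (median 16.6) in the ganglion, highest in STG replicate 1, and from 28.3 to 32.1 (median 30.6) in the nucleus (-0.83 ± 0.06, limma adjusted p = 1.32e-07). Nnat, a small proteolipid of the endoplasmic reticulum whose gene lies inside an intron of Blcap, was at 36.7, 14.1 and 25.5 in STG, 26.1, 22.0 and 7.09 in CTG, 26.9, 56.1 and 28.5 in SSp5C, and 31.0, 55.0 and 48.6 in CSp5C. The tissues overlapped through STG replicate 1. The difference of -0.96 ± 0.35 (limma adjusted p = 0.0312) was not called in the S libraries alone (limma adjusted p = 0.319), nor without CSp5C replicate 2 (0.0693), CSp5C replicate 3 (0.0625), CTG replicate 3 (0.0547), SSp5C replicate 2 (0.0728) or STG replicate 2 (0.0734).

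On the distal part of chromosome 7, Slc22a18, a transporter of the organic cation family, was at 3.01 to 4.07 (median 3.32) FPKM in the ganglion and 0.115 to 0.481 (median 0.254) in the nucleus, a 12.7-fold higher mean (1.81 ± 0.08, limma adjusted p = 3.14e-09). Cdkn1c, the cyclin-dependent kinase inhibitor p57, had 4.10 ± 1.23 FPKM (SD, n = 6) and 2.78 ± 0.833 (0.43 ± 0.19, limma adjusted p = 0.0674). In its exons 30.7% of the bases lie opposite a predicted gene on the other strand. It did pass without CSp5C replicate 1 (limma adjusted p = 0.0254), CTG replicate 3 (0.0444) or STG replicate 2 (0.0378). Phlda2, a growth-restraining placental gene in mice, lay under the filter. It was listed at 0 in all 6 nucleus libraries and at 0.254, 0.197 and 0.688 in STG and 0.0490, 0.493 and 0.371 in CTG.

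Copg2, a coatomer subunit, was at 19.6 to 21.2 (median 20.4) and 21.3 to 23.2 (median 22.5), without overlap (-0.13 ± 0.03, limma adjusted p = 0.00555), but not past the threshold in the C libraries alone (0.136) or with its leading transcript (0.158). Mest, a hydrolase-like gene of fetal growth, had 28.7 ± 4.98 and 27.8 ± 1.78 FPKM (SD, n = 6), a difference of 0.03 ± 0.11 (limma adjusted p = 0.818) whose sign changed with quantile normalization (-0.00079). The 2 genes overlap at their ends on opposite strands, over 912 exonic bases, 17.8% of those of Copg2. The library kit named in the labels keeps strand, but the sources used here do not say whether counting did, so reads of that stretch cannot be told apart. On chromosome 17, Igf2r, the receptor that clears Igf2, had 9.52 ± 0.531 and 9.07 ± 0.398 FPKM (SD, n = 6; 0.06 ± 0.05, limma adjusted p = 0.239), and its neighbour Slc22a3, under the filter, 0.588 to 0.816 and 0.262 to 0.737.

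Dlk1 and Igf2 varied among libraries of the same group more than nearly all other genes. Over the 13081 genes tested, the SD within groups on the log2 scale had a median of 0.117, and over the 28 members 0.114. For Dlk1 it was 1.39, at the 99.8th percentile, for Igf2 1.18 (99.7th) and for Nnat 0.680 (98.5th). Copg2 at 0.0422 (1.88th percentile), Zrsr1 at 0.0498 and Ndn at 0.0530 were at the other end.

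Dlk1, a transmembrane protein of progenitor and endocrine cells, was at 7.17 FPKM in STG replicate 1 and at 0, 0, 0.0135, 0.342 and 0 in the other ganglion libraries. The high value was in the library with pituitary markers at 2876 FPKM; the pituitary part in it was not tested. In the nucleus Dlk1 was at 1.77, 6.39 and 0 in SSp5C and at 6.67, 4.60 and 0 in CSp5C. Whether a value of exactly 0 beside such levels is a failed estimate was not tested. The 3 nucleus libraries with the highest Dlk1 were those with the highest sums of meninges and fibroblast markers (134, 127 and 110 FPKM, against 40.0 to 48.8 in the others), and the part of such cells was not tested. The difference of -1.05 ± 0.72 did not pass (limma adjusted p = 0.214), and without STG replicate 1 it was -1.56 (adjusted p = 0.0487). The other genes of its domain lay under the filter: Rtl1, a retrotransposon-derived placental gene, was listed at 0 in all 12 libraries, and Dio3, the deiodinase that inactivates thyroid hormone, at 0 to 0.0794 FPKM.

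Igf2, the fetal growth factor, was high in some libraries of each tissue. It was at 17.99, 12.7 and 53.3 FPKM in STG, 48.7, 18.8 and 11.1 in CTG, 10.6, 83.7 and 14.8 in SSp5C, and 77.5, 55.5 and 19.002 in CSp5C. The difference between tissues, -0.51 ± 0.61, did not pass (limma adjusted p = 0.481) and was 0.82 with its leading transcript alone. The 12 meninges and fibroblast markers, all above 0 in every library, summed to 794, 712 and 1069 in STG, 975, 816 and 641 in CTG, 40.0, 134 and 44.5 in SSp5C, and 127, 110 and 48.8 in CSp5C. The 3 nucleus libraries with Igf2 above 50 FPKM were the 3 with marker sums above 100, and the 2 ganglion libraries with Igf2 above 40 had the highest sums of that tissue. Between tissues the sum did not go with Igf2, since it was higher in every ganglion library than in any nucleus library while Igf2 was not. Col1a1, Col1a2, Col3a1, Dcn, Ogn and Lum each ran as the sum did. Slc6a13, Slc22a6, Ranbp3l, Aldh1a2 and Pdgfra were instead highest in the 3 nucleus libraries with Igf2 above 50 FPKM, and Foxc1 overlapped. Slc6a13 was at 4.21, 5.52 and 7.84 FPKM in STG and 7.24, 4.83 and 2.72 in CTG. In the nucleus Slc6a13 was at 1.71, 11.01 and 1.48 in SSp5C and 9.19, 8.65 and 3.16 in CSp5C. The part of meningeal cells in the Igf2 values was not tested. An annotated read-through gene shares 90.5% of the 50-base words of the leading Igf2 transcript but was listed at 0 to 0.0229 FPKM.

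**Figure D3:**
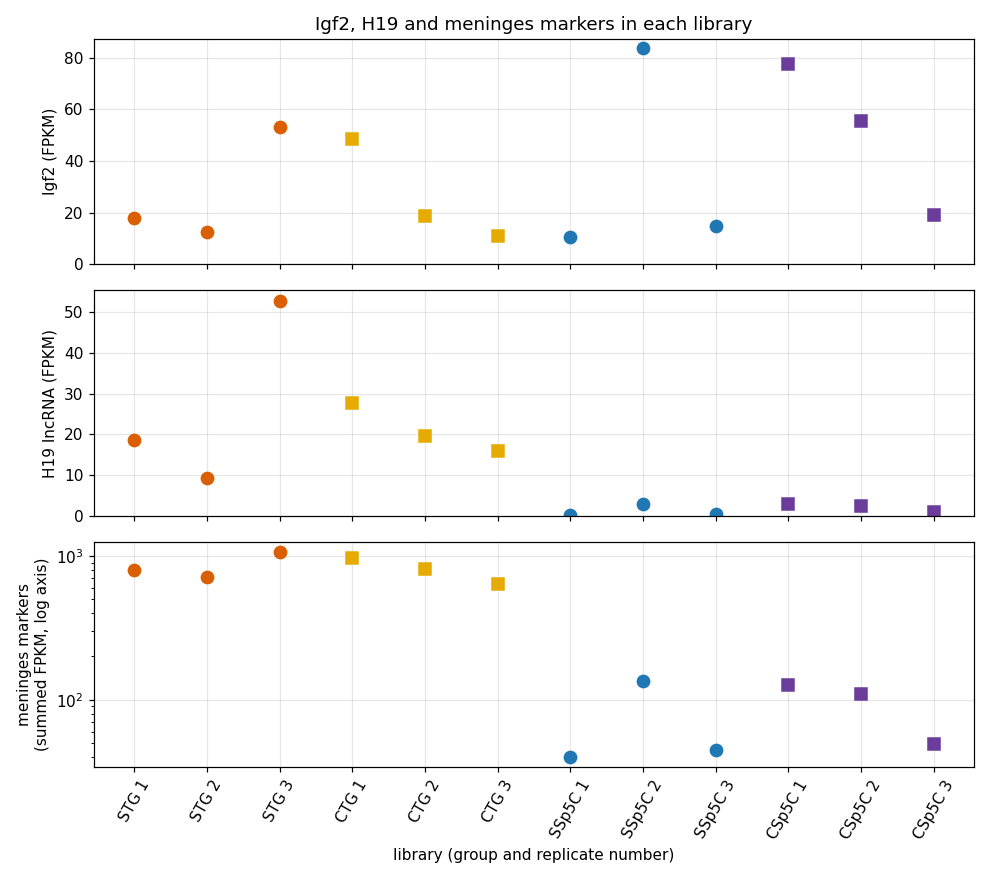
Igf2 (FPKM), the non-coding RNA H19 (FPKM) and the sum of 12 meninges and fibroblast markers (log axis) in each of the 12 libraries. Within the nucleus the same 3 libraries are high in all 3 panels, and within the ganglion STG replicate 3 and CTG replicate 1 are the highest in all 3.

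Within each tissue, no imprinted gene was called between C and S. In the ganglion, 0 of 27 tested members passed limma with adjustment over 12906 genes, of which 1 (0.00775%) did, and in the nucleus 0 of 29, where 4 of 12690 genes (0.0315%) did, 0.00788% higher and 0.0236% lower. At an unadjusted p under 0.05 there were 2 of 27 members in the ganglion (4.7% of all genes) and 0 of 29 in the nucleus (5.02%). The median difference of members, C minus S, was -0.07 in the ganglion and 0.00 in the nucleus, beside -0.0058 and 0.00071 over all genes tested.

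The members with the smallest p in the ganglion were Ppp1r9a, Plagl1, Blcap, Ndn and Zim1. Ppp1r9a was at 18.5, 17.7 and 17.4 FPKM in STG and 14.8, 16.5 and 14.6 in CTG, without overlap (-0.21 ± 0.06, limma adjusted p = 0.960). Plagl1 was at 14.5, 12.2 and 12.6 in STG and 10.01, 11.9 and 9.35 in CTG, also without overlap (-0.31 ± 0.10, limma adjusted p = 0.960). Blcap was at 20.9, 16.9 and 16.7 against 14.7, 16.4 and 15.1 without overlap (-0.22 ± 0.10, limma adjusted p = 0.960). Ndn was at 31.5, 30.9 and 29.9 against 31.2, 34.7 and 34.4 (0.11 ± 0.06), and Zim1 at 2.23, 1.38 and 1.87 against 1.19, 1.45 and 1.39 (-0.26 ± 0.14), both with overlap and a limma adjusted p of 0.960. Groups of 3 that did not overlap were found for 5 of the 27 members tested, Peg3 and Zrsr1 being the others, and for 10.8% of all genes. The highest STG value of Ppp1r9a, Plagl1, Blcap and Zim1 was that of replicate 1, the library with pituitary markers, and the granulocyte markers were highest in 2 CTG libraries; their part was not tested.

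In the nucleus the smallest p values belonged to Ube3a, Gnas, Trappc9, Ndn and Igf2. Ube3a was at 29.4, 32.3 and 32.5 FPKM in SSp5C and 35.3, 33.3 and 33.3 in CSp5C, without overlap, as were 10.9% of all genes (0.11 ± 0.06, limma adjusted p = 0.931). Gnas was at 351, 440 and 408 against 355, 380.3 and 358 (-0.13 ± 0.09). Trappc9 was at 19.8, 18.5 and 19.1 against 20.3, 20.2 and 19.8 (0.07 ± 0.05), and Ndn at 61.1, 61.1 and 57.5 against 56.4, 57.9 and 58.2 (-0.06 ± 0.05). These 3 overlapped and had a limma adjusted p of 0.931, the same as Igf2 (0.84 ± 0.89), whose values are given above.

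The difference between the C minus S effects of the 2 tissues was also tested in 1 fit of all 12 libraries. It passed for 0 of 28 members and for 0 of 13081 genes with limma, with 2 members and 5.41% of all genes at an unadjusted p under 0.05. The members with the smallest p were Ppp1r9a (-0.20 ± 0.08, limma adjusted p = 0.889), Ndn (0.17 ± 0.07, adjusted p = 0.889) and Plagl1 (-0.35 ± 0.18, adjusted p = 0.898).

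**Figure D4:**
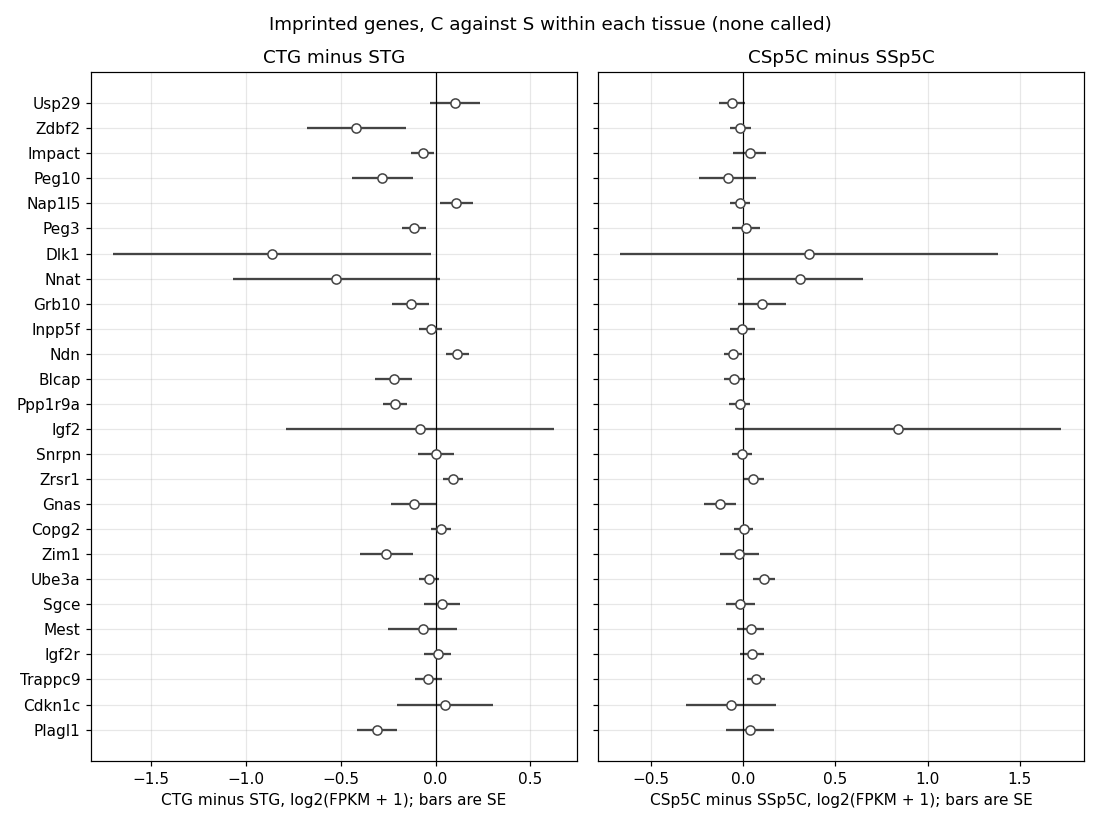
Difference C minus S on the log2(FPKM + 1) scale for the 26 members tested in both tissues, ganglion left and nucleus right; points are limma estimates from 6 libraries and bars their standard errors. No point passed the adjusted threshold, and the longest bars belong to Dlk1, Igf2 and Nnat.

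Transcripts of 8 members were called as differing in relative use between the tissues. The test (limma diffSplice, F-test per gene) covered 5990 genes with at least 2 transcripts of a mean of at least 0.5 FPKM; 21 members entered, and 32.4% of all genes and 23.9% of all transcripts were called. The 8 members were Ppp1r9a, Usp29, Gnas, Plagl1, Sgce, Grb10, Ddc and Nap1l5. All 8 were also called when each transcript kept its own spread, a setting added after the data were seen in which 24.2% of all genes were called, whereas Plagl1, Ddc and Nap1l5 were not at a pseudocount of 0.1 FPKM. Transcripts were matched by their identifiers to GENCODE M21, in which 56929 of the 57109 listed were found, and starts within 1000 bases of each other were grouped. Differences below are those of a transcript relative to the rest of its gene, TG minus Sp5C on the log2 scale.

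In Grb10, the start groups differed by tissue. Of the gene's FPKM, transcripts from the upstream start shown above gave 86.3 ± 2.56% (SD, n = 6) in the ganglion and 66.3 ± 11.5% in the nucleus. The downstream start shown above gave 0.0165 to 0.0553 FPKM in the ganglion and, in the nucleus, 1.38, 1.54 and 6.67 in SSp5C and 1.53, 1.39 and 2.003 in CSp5C. All nucleus libraries were above all ganglion libraries, and SSp5C replicate 3 stood above the others. As background, mouse Grb10 is known for maternal expression from an upstream promoter outside the brain and for paternal expression from downstream promoters in neurons; whether the windows shown are those promoters was not checked. The next start group downstream had 1.37 ± 0.229 and 4.52 ± 1.13 FPKM (SD, n = 6). Relative to the gene, Grb10-203 of the downstream start was lower in the ganglion (-0.85, limma adjusted p = 0.00227), as was Grb10-207 of the next group (-0.56, adjusted p = 0.0479). Grb10-209, also of that group, was higher relative to the gene (0.89, limma adjusted p = 0.00148). Its own level was lower, at 0.619 ± 0.167 FPKM (SD, n = 6) in the ganglion and 0.952 ± 0.282 in the nucleus, with both means under the pseudocount of 1. Grb10-201 of the upstream start did not pass (0.53, limma adjusted p = 0.0670).

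The Gnas transcripts began in 4 places. Mouse Gnas is known to have separate promoters for the proteins NESP55, XLαs and Gsα and for a non-coding transcript; the listed transcripts were not assigned to them. Gnas-222, which begins at the first, was at 1.28 ± 1.43 FPKM (SD, n = 6) in the ganglion and 23.6 ± 5.23 in the nucleus (-3.27 relative to the gene, limma adjusted p = 6.59e-05). Gnas-211, from the same start, was at 33.4 ± 21.4 and 24.9 ± 21.5. All transcripts of the first start together gave 10.5 ± 5.83% of the gene's FPKM in the ganglion and 12.5 ± 5.59% in the nucleus, a difference smaller than the spread between libraries. The group 45.7 kb downstream of the first gave 47.0 ± 4.24% in the ganglion and 29.4 ± 8.19% in the nucleus. Within it Gnas-207 was at 54.8 ± 10.8 and 14.7 ± 4.67 FPKM (2.84 relative to the gene, limma adjusted p = 0.000543) and Gnas-206 at 82.5 ± 15.1 and 36.7 ± 31.8 (2.48, adjusted p = 0.00277). Gnas-202, whose start lies 43.4 kb from the first, was the most abundant at 133 ± 18.1 and 202 ± 26.7 FPKM and did not pass relative to the gene (0.08, limma adjusted p = 0.955).

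Transcripts from the promoter next to Peg3 gave 0.247 to 0.903 FPKM in the ganglion and 11.03 to 13.3 in the nucleus. Usp29-201, a transcript that begins 230.6 kb downstream, was at 0.662 ± 0.460 FPKM (SD, n = 6) in the ganglion and 0.609 ± 0.129 in the nucleus (3.09 relative to the gene, limma adjusted p = 5.38e-09). It made up 50.8 ± 29.5% and 4.89 ± 1.15% of the gene. Exons of Usp29 share 2582 bases with Zim3 on the opposite strand, and reads there cannot be told apart without strand.

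Ppp1r9a-212, which begins 2.5 kb inside the gene, gave 22.6 ± 0.553% (SD, n = 6) of its FPKM in the ganglion and 6.11 ± 0.828% in the nucleus. It was at 3.28 to 4.21 FPKM against 1.35 to 2.02, higher in the ganglion although the gene as a whole was lower (1.54 relative to the gene, limma adjusted p = 6.76e-15). Within Sgce, which did not pass as a gene, transcripts went in opposite directions. Sgce-204 was at 7.95 ± 1.16 FPKM in the ganglion and 2.79 ± 1.26 in the nucleus (limma adjusted p = 0.000237), and Sgce-202 at 1.75 ± 1.94 and 5.57 ± 3.04 (adjusted p = 0.00107). In Plagl1 the leading transcript, Plagl1-202, was at 9.24 ± 1.04 and 3.48 ± 0.457 FPKM and its other tested transcript, Plagl1-222, at 0.773 ± 0.488 and 0.410 ± 0.177 (limma adjusted p = 0.000183).

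Alternative starts of Snrpn and Inpp5f, chosen after their values were seen, are given as values, since neither gene passed the F-test. The upstream start of Snrpn, 135.1 kb before the main one, had 75.2 ± 6.18 FPKM (SD, n = 6) in the nucleus. In the ganglion it had 51.2, 42.1 and 0.172 in STG and 32.5, 34.6 and 41.6 in CTG, the value in STG replicate 3 standing apart (F-test of the gene by limma, adjusted p = 0.146). The main Snrpn start was at 144 ± 17.3 and 148 ± 9.90. The short Inpp5f transcripts, which begin 76.2 kb downstream (an internal promoter is the imprinted one in mouse brain), had 6.90 ± 1.24 FPKM in the ganglion and 16.1 ± 2.18 in the nucleus, 29.5 ± 5.41% and 35.8 ± 4.12% of the gene (limma adjusted p = 0.375).

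**Figure D5:**
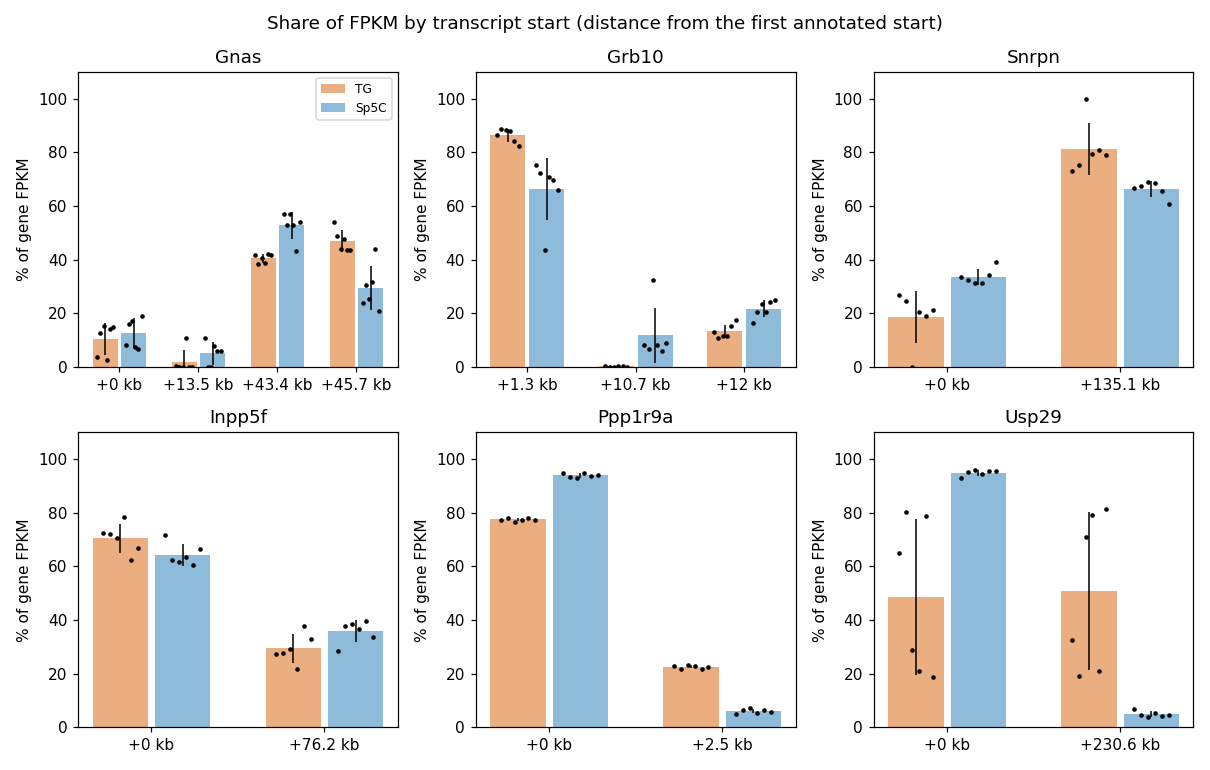
Share of each gene's FPKM by group of transcript starts (percent; x axis, distance from the first annotated start) for Gnas, Grb10, Snrpn, Inpp5f, Ppp1r9a and Usp29; bars are means of 6 libraries, lines the SD and dots the libraries. The libraries of the tissues do not overlap at the Grb10 starts at 1.3 and 10.7 kb or at the Gnas start at 43.4 kb. The same holds for the starts drawn of Snrpn, Ppp1r9a and Usp29. The ganglion shares of the first Usp29 start spread from 18.7 to 80.1%.

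Of 17 imprinted non-coding RNAs listed, 7 were found in the deposited table of annotated long non-coding RNAs. On log2(FPKM + 0.5), limma called 6 of the 7, 4 lower and 2 higher in the ganglion, against 26.1% lower and 30.3% higher of 1431 such genes. Snhg14, the host of the Angelman domain's small nucleolar RNAs and of the Ube3a antisense transcript, was at 9.85 to 18.9 FPKM in the ganglion and 72.1 to 95.8 in the nucleus (-2.52 ± 0.10, adjusted p = 1.94e-11). It overlaps exons of Ube3a on the opposite strand. Mirg of the Dlk1 domain was lower (-0.69 ± 0.14, limma adjusted p = 0.000475), as were Peg13 (-0.59 ± 0.06, adjusted p = 4.18e-07) and Kcnq1ot1 (-0.45 ± 0.12, adjusted p = 0.00418).

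H19, transcribed beside Igf2 from the maternal copy, was higher in the ganglion, at 18.5, 9.34 and 52.8 FPKM in STG and 27.7, 19.6 and 16.0 in CTG against 0.233 to 2.95 in the nucleus (3.62 ± 0.54, limma adjusted p = 0.000359). Its highest nucleus values, 2.95, 2.79 and 2.38, were in the 3 libraries with the highest Igf2 and meninges marker sums. Airn, the antisense RNA of the Igf2r domain, was also higher (0.55 ± 0.17, limma adjusted p = 0.0133). Rian, listed at 0 in the first library of STG, CTG and CSp5C, had 14.8 to 43.3 FPKM elsewhere, and did not pass (limma adjusted p = 0.438).

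Of 26 genes that set, keep or read DNA methylation and imprints, 22 were tested, 6 of them higher and 9 lower in the ganglion, where 36.2% of all genes were called higher and 35% lower. Among the lower were the de novo DNA methyltransferase Dnmt3a, at 10.5 ± 1.70 FPKM (SD, n = 6) in the ganglion and 18.9 ± 0.792 in the nucleus (-0.80 ± 0.05, limma adjusted p = 8.00e-08), and the methyl-CpG binding protein Mbd3 (-0.44 ± 0.05). Highest were the methyl-CpG binding protein Mbd2 (0.54 ± 0.05), the Polycomb subunit Suz12 (0.28 ± 0.05) and the zinc finger factor Yy1 (0.27 ± 0.04). The median over the 22 was -0.02.

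Among 37 other imprinted genes in the table, 30 were tested, 9 higher and 16 lower in the ganglion, with a median of -0.28, beside 36.2% higher, 35% lower and a median of 0.01 over all genes. Rasgrf1, a neuronal Ras exchange factor, was at 3.28 ± 0.636 FPKM (SD, n = 6) in the ganglion and 110.4 ± 4.24 in the nucleus (-4.72 ± 0.07, limma adjusted p = 8.97e-13). Kcnk9, a background potassium channel, was at 0.510 ± 0.228 and 17.0 ± 2.76 (-3.58 ± 0.11, limma adjusted p = 8.38e-11), and the tetraspanin Cd81 was lower as well (-1.50 ± 0.06). Phactr2, a phosphatase and actin regulator, was at 34.8 ± 3.07 and 7.13 ± 0.694 (2.14 ± 0.07, limma adjusted p = 2.82e-10). Cdh15, a cadherin (1.08 ± 0.13), and Th, tyrosine hydroxylase (0.93 ± 0.19), were higher too.

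Of 14 IGF axis genes in the table, 12 were tested, 7 higher and 3 lower in the ganglion, with a median of 0.53, against the same shares and median of all genes. The IGF binding protein Igfbp4 was at 31.4 ± 6.22 FPKM (SD, n = 6) and 3.95 ± 1.69 (2.76 ± 0.22, limma adjusted p = 7.83e-07), followed by Igf2bp2, which binds Igf2 mRNA (1.37 ± 0.06), and Igfbp5 (1.34 ± 0.24). Igfbp2 was lower, at 7.49 ± 3.89 and 26.1 ± 10.1 (-1.72 ± 0.34, limma adjusted p = 0.000927), as were the insulin receptor substrate Irs2 (-0.30 ± 0.04) and the insulin receptor Insr (-0.13 ± 0.03). The summed FPKM of the meninges and fibroblast markers was higher in the ganglion. Of 11 such markers tested in the same comparison, 6 were called higher there and 1 lower. Their part in the IGF binding protein levels was not tested. None of these 3 lists had a member called between C and S in either tissue, where limma called 1 gene in the ganglion and 4 in the nucleus in all.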

How the data were processed

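RNA was measured in 12 libraries. Per the labels' protocols, total RNA extracted with Trizol was depleted of ribosomal RNA and made into directional libraries. Per the submitters' processing notes, HISAT2, StringTie 1.3.1 and Cuffdiff 2.1.1 were used. The sources used here do not give the genome build, annotation, strand setting or counting options. Values were deposited as FPKM per transcript for messenger RNAs and annotated long non-coding RNAs. FPKM is scaled by transcript length and library size, depth is therefore unknown, and no interval from counts was made.

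Transcripts were summed per gene. Genes with a mean of at least 1 FPKM over the libraries compared were tested on log2(FPKM + 1) with limma 3.58.1 (R 4.3.3; trend and robust moderation, two-sided), Benjamini-Hochberg adjusted over all genes tested. A fold change on that log2 scale understates the change of low genes. TG against Sp5C and the difference of effects used 12 libraries as 4 group means, C against S the 6 libraries of a tissue. Long non-coding RNAs used a pseudocount and filter of 0.5 FPKM. Transcript use was tested with limma diffSplice.

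The steps were tested on simulated data with 200 changed features each. For transcript use, 146 of 200 changed genes were recovered over 5813 genes with 31 other genes called, and with a spread of its own per transcript 140 and 5. Members, lists and tests were chosen with earlier results of these data known. All members are accounted for. Values by library, or their range and median, are given for the called members with the highest and lowest differences between tissues, those with the highest mean, and the 5 with the smallest p in each C against S comparison, and group means for the others that passed the filter. Of each further list, the 3 highest and 3 lowest called genes are named, except 1 that is not reported here, and transcripts are given for the called genes with the smallest p. Alternatives changed the pseudocount, filter, scaling, moderation, libraries, replicate block and the use of the leading transcript. The table of newly assembled long non-coding RNAs was not used here.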

Additional observations from a re-analysis of the deposited data

Results flagged for a closer look

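Within each tissue of 6 libraries, 56 combinations of a tested member and a tissue were examined for a highest or lowest library whose gap to the next exceeded Dixon's 95% critical share of the whole range on the log2(FPKM + 1) scale. Chance flags about 1 in 20 such groups, and 7 were flagged. In STG replicate 1, the library with pituitary markers, Dlk1 was at 7.17 FPKM against 0.342 in the next ganglion library, Zdbf2 at 3.54 against 1.66, and Impact at 27.5 against 25.2. Gnas was lowest in CTG replicate 1, at 263 FPKM against 325 in the next. Grb10 was highest in STG replicate 3, at 12.7 against 10.3. In the nucleus, Usp29 was highest in SSp5C replicate 2, at 13.97 against 12.6, and Zrsr1 lowest in SSp5C replicate 1, at 15.7 against 17.0. Without STG replicate 1, Zdbf2 and Impact were still called lower in the ganglion, and Dlk1, not called over all libraries, passed the threshold.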

How the results depend on the processing

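Over 25 other settings, 14 to 22 members were lower and 2 to 4 higher in the ganglion, and 0 were called between C and S under every setting run; 6 long non-coding RNAs were called under each of their 14. Median-ratio and quantile scaling moved the median of all genes from 0.01 to -0.01 on the log2 scale. Between C and S, the nucleus had 0 genes called in a fit of all 12 libraries, with a mean of at least 5 FPKM or with the replicate block, 2 with the leading transcript, and 0 to 8 with 1 library left out. The ganglion had 0 under the first 3 of these, 2 with quantile normalization, 6 with the leading transcript, and 0 to 7 with 1 library left out; the difference of effects had 0 to 2. Transcript use was called for 5 members with a mean of at least 1 FPKM per transcript and for 5 at a pseudocount of 0.1. Signs changed with the leading transcript for Igf2 (0.82), Mest (-0.0214) and, in the nucleus, C minus S, Trappc9 (-0.62). Mest was -0.0254 in the C libraries, -0.00079 with quantile normalization and -0.0366 to 0.119 with 1 library left out. Sgce was -0.0131 with median-ratio scaling, -0.0178 in the S libraries, -0.0170 with quantile normalization, -0.0414 to 0.0413 with 1 library left out and -0.0599 without the first libraries of both ganglion groups, a setting chosen after seeing the data. Ube3a was 0.0513 in the S libraries. The causes were not tested. Same-numbered samples did not pair throughout: correlations of their deviations were -0.151 to 0.191 between STG and CTG, -0.127 to 0.103 between SSp5C and CSp5C, -0.197 to -0.0227 between STG and SSp5C and 0.228 to 0.383 between CTG and CSp5C, the last being the only pair of groups in which each sample of the first correlated best with its own number. With the replicate block 16 members were lower and 4 higher in the ganglion; Nnat was not called (limma adjusted p = 0.0920) and Cdkn1c was (0.0369). Depth is unknown, so how far it limits low genes cannot be stated.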
